A study of Mus musculus with 59 samples.

Results

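Voltage-gated potassium channels are built from pore-forming alpha subunits of the Kv families and from cytoplasmic beta subunits. The genes described here are all rows of the expression table whose symbol is that of a Kv alpha subunit (Kcna, Kcnb, Kcnc, Kcnd, Kcnf, Kcng, Kcnh, Kcnq, Kcns and Kcnv with a number) or of a Kv beta subunit (Kcnab1, Kcnab2 and Kcnab3). This rule used names only and found 43 of 41227 genes. By family they are 8 Kv1 genes, 2 Kv2 genes, 4 Kv3 genes, 3 Kv4 genes, 5 Kv7 genes, 8 genes of Kv10 to Kv12, 10 silent modifiers and 3 Kv beta genes.

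RNA of the mouse pons was sequenced in models of spinocerebellar ataxia type 3, a polyglutamine disease of the deubiquitinase ataxin-3 in which the brainstem is affected. All mice were C57BL/6, and no ages are given in the sources used here. The table held 37 libraries of the 59 samples that the labels describe, in a first set of 9 and a second set of 28, and 22 samples were not analysed here. In the first set there were 3 wild-type libraries (WT), 3 of Atxn3 knockouts (Atxn3KO) and 3 homozygous for a variant knock-in, labelled as duplicated, with 82 glutamine repeats (dupKIHom). The second set comprised 6 wild-type libraries, 6 heterozygous for that duplicated knock-in (dupKIHet), and 4 each of heterozygotes and homozygotes of a traditional knock-in, labelled as single, with 82 repeats (KIHet, KIHom). It also held 4 libraries each from hemizygous mice with a human ATXN3 transgene of 84 or 15 repeats (YACQ84, YACQ15). The labels name no driver or copy number for the transgenes. Libraries are numbered within a genotype as their columns are. Levels are given in FPKM, a read density per transcript length and library size. The depth behind them is unknown, so every error given here is the spread between libraries.

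Kv1 channels, with Kv beta subunits, sit beside the nodes of Ranvier of myelinated axons and limit repetitive firing. Kv3 channels repolarize fast-spiking neurons, Kv4 channels carry the transient A-type current of dendrites, and Kv7 channels carry the slow M-current that dampens excitability. The silent modifiers (Kcnf, Kcng, Kcns, Kcnv) make no channel of their own and assemble with Kv2 subunits, while Kv10 to Kv12 are the EAG, ERG and ELK channels.

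A few facts of the whole data set bear on these genes. The Atxn3 level checked some of the labels: it was 0.239 ± 0.0832 FPKM in knockouts (SD, n = 3), against 7.04 ± 0.704 in wild-type mice of the first set (SD, n = 3). In the second set Atxn3 stood at 11.8 ± 1.31 FPKM in dupKIHet (SD, n = 6), 6.10 ± 0.620 FPKM in KIHet (SD, n = 4) and 7.05 ± 0.705 FPKM in wild-type (SD, n = 6). Against wild-type Atxn3 was not called in KIHet, KIHom, YACQ84 or YACQ15, so it checked only the knockout and duplicated labels. The first set was male by Ddx3y (23.6 to 32.6 FPKM) and the second female by Xist (1.29 to 2.74 FPKM), so each set was compared only within itself. Ttr, a choroid plexus transcript, spanned 4.51 to 2909 FPKM over the first 9 libraries and 14.2 to 3125 FPKM over the other 28. Of the marker lists used below, Gad1 was listed at 0 in every genotype of the second set, Slc17a7 in WT and KIHom, and Mbp in WT and dupKIHet. In the second set, the library numbered 1 of each of the 6 genotypes stood apart from the rest, and the calls named for that set are therefore also given without these 6 libraries.

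Promoters of 4 of the genes are shown first, because their levels frame the results below. Kcna3 and Kcna2 are neighbouring Kv1 genes on chromosome 3 that differ in transcript length (1902 and 11582 bases for the longest transcript). Kcnc1 encodes a Kv3 subunit of fast-spiking neurons. Kcng4 is the most abundant silent modifier. The windows are 250 bases before to 50 after the transcription start, from RefSeq on GRCm38.p6, written 5′ to 3′ on the strand of the gene, with GC boxes (GGGCGG, on either strand) in capitals.
Kcna3, chr3:107035912-107036211, plus strand: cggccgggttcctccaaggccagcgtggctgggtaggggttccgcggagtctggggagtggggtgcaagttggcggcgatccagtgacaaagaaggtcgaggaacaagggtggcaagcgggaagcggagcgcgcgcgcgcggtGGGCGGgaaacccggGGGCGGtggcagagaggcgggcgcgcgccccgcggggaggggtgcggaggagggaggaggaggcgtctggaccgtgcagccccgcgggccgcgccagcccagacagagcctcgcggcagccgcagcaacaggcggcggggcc
Kcna2, chr3:107101317-107101616, plus strand: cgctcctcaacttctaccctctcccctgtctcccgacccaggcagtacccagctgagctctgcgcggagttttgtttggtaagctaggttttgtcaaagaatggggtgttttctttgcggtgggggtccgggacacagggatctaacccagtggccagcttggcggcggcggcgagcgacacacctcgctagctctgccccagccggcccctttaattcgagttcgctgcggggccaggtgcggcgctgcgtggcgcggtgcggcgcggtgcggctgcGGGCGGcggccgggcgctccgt
Kcnc1, chr7:46396218-46396517, plus strand: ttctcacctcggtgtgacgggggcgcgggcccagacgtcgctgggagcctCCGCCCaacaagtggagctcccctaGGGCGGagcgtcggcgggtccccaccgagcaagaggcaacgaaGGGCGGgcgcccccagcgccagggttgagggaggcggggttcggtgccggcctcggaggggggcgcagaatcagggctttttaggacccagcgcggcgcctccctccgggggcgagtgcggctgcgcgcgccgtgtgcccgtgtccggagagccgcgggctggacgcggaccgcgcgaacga
Kcng4, chr8:119635631-119635930, minus strand: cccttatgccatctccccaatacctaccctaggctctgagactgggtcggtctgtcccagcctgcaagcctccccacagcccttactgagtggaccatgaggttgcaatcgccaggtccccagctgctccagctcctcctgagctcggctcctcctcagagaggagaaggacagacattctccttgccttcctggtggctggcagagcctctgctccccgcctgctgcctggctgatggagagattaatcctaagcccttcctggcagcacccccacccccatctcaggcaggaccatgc
The 3 promoters of Kcna3, Kcna2 and Kcnc1 hold 2, 1 and 3 GC boxes and are 75%, 66.7% and 74.7% G and C, with 37, 31 and 41 CpG dinucleotides. That of Kcng4 holds none, is 61.3% G and C and has 4 CpG dinucleotides. The reference table holds 36 promoters of 27 members, since some genes have several. Of these 36 promoters 20 hold a GC box (55.6%), against 35.7% of all 32851 promoters in the table. A TATA box (TATAAA, on either strand) is in 1 of the 36 and in 13.6% of all promoters. Kcna1 and Kcnq3 have no entry in that table.

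The families differed widely in level in the pons. Kcnab2, the beta2 subunit, was the most abundant member, at a mean of 145 FPKM in the first set and 297 FPKM in the second. Kcnc1 of the Kv3 genes averaged 85.6 and 93.7 FPKM, and Kcna1 (60.2 and 68.9 FPKM) led the Kv1 genes. Kcnh2, the ERG1 channel, stood at 46.4 and 40.4 FPKM, and Kcnq3, an M-current subunit, at 8.64 and 10.1 FPKM. Kcng4 stood at 24.5 and 25.7 FPKM, and Kcnd2, an A-type subunit, at 16.1 and 16.3 FPKM. Means over a set reached at least 1 FPKM for 32 members among males and 31 among females. They reached 10 FPKM for 14 and 16 members, and 50 FPKM for 4 and 5.

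At the low end, Kcna7, Kcna10, Kcng3, Kcnh3, Kcnh4, Kcnh8, Kcnq1, Kcnv1 and Kcnv2 did not reach 1 FPKM in 3 libraries of either set. Kcnb2 (Kv2.2) and Kcng1 passed only in the first set. Kcnb2 was measured at 1.26 to 2.29 FPKM there and is listed at 0 in all 28 libraries of the second. Kcng1 read 1.33 to 4.95 FPKM in males and at most 0.0933 FPKM in females. Genotype tests therefore covered 34 members among the males and 32 among the females. How the sets were normalized against each other is not given in the sources used here, and they differ in sex, so levels are not compared across them beyond this.

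**Figure D1:**
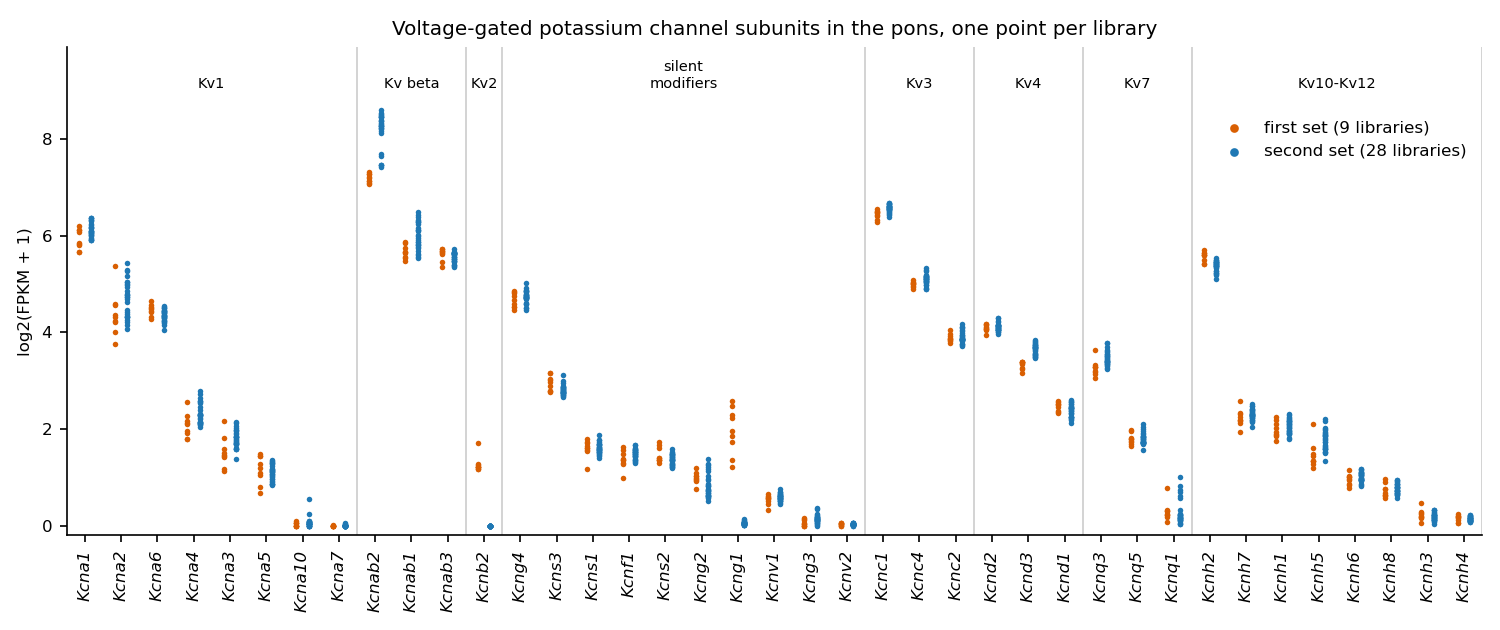
Each point is 1 library for 39 members, the vertical axis is log2(FPKM + 1), and genes are grouped by channel family and ordered by level. Of these, Kcnab2 and Kcnc1 lie highest, and Kcnb2 and Kcng1 separate the 9 libraries of the first set from the 28 of the second.

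In homozygous duplicated knock-ins, Kcna1 and Kcng4 measured below wild-type in every library, though neither passed the test. Tests are on log2(FPKM + 1), with calls at an adjusted p under 0.05. By limma 1 of 34 tested members was called against wild-type, 2.94% beside 1.64% of all genes tested. At an unadjusted p under 0.05, 8 members were lower and 1 higher in dupKIHom, 23.5% and 2.94%, while 5.29% of all genes were lower and 6.97% higher. Among the 8 were Kcna1, Kcna6, Kcnab1, Kcnc1, Kcng4 and Kcns3, none of which passed the adjusted threshold. Kcna1, whose Kv1.1 subunit lines myelinated axons, read 66.0, 68.6 and 68.3 FPKM in wild-type and 49.8, 56.2 and 49.8 FPKM in dupKIHom, with no overlap. Its log2 difference was -0.38 (SE 0.10, limma adjusted p = 0.106). Kcng4 read 27.3, 27.0 and 27.8 FPKM in wild-type and 22.9, 20.9 and 22.03 FPKM in dupKIHom, also without overlap, a log2 difference of -0.31 (SE 0.07, limma adjusted p = 0.0733). Without overlap, 9 of 34 members were lower and 1 higher, where 8.2% of all genes were lower and 12% higher. Kcna1 and Kcng4 passed the threshold once Ttr was a covariate, once only these 2 genotypes were fitted, or once values were corrected for transcript length. With the length correction 4 of 34 members were called, beside 2.83% of all genes with a length.

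Cell-type markers moved alongside, where 0.484% of all genes were called higher and 1.15% lower. The summed FPKM of the 10 neuronal markers was 4183 to 4396 in wild-type and 3731 to 3872 in dupKIHom, and 3 of them, the neurofilament genes Nefl, Nefm and Nefh, were called lower. Of the 10 mature oligodendrocyte markers 7 were called lower, and the list summed to 10886 to 11926 FPKM in wild-type and 7595 to 7842 FPKM in dupKIHom. Astrocyte markers summed to 830 to 916 FPKM in wild-type and 531 to 626 FPKM in dupKIHom, with 5 of 8 called lower. Endothelial markers summed to 89.7 to 96.9 FPKM in wild-type and 66.8 to 72.5 FPKM in dupKIHom, and 1 of 5, Cldn5 of tight junctions, was called lower (log2 -0.65, limma adjusted p = 0.00427). In bulk tissue, fewer cells of a type and less RNA per cell cannot be told apart, and the part of these markers in the channel values was not tested beyond a neuronal covariate. With that covariate no gene was called in this contrast. The covariate, a mean log2 level, was 8.03 to 8.07 in wild-type and 7.91 to 7.94 in dupKIHom, without overlap. It therefore went with genotype, and this fit cannot tell the 2 apart.

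**Figure D2:**
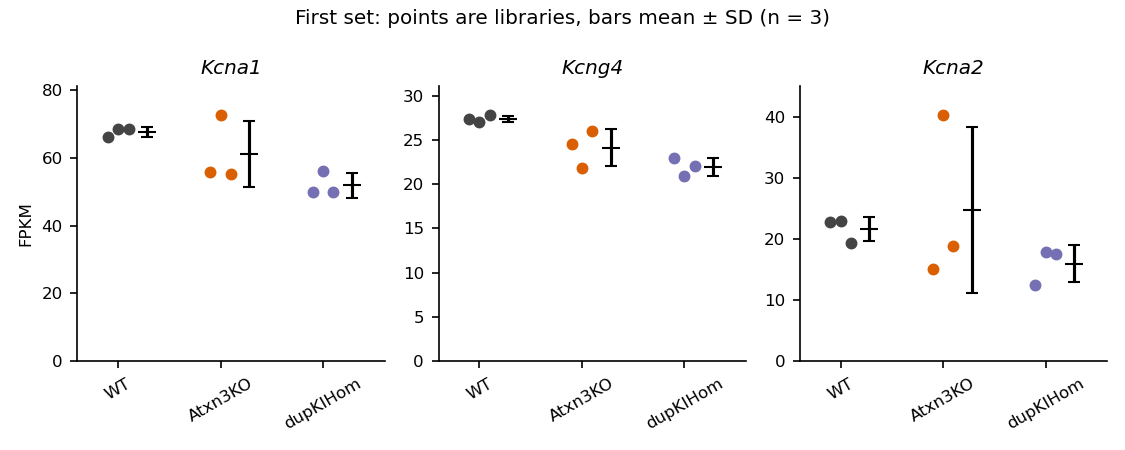
FPKM of 3 members by library in the first set, with the mean and SD of each genotype (n = 3). Kcna1 and Kcng4 separate dupKIHom from wild-type, and Kcna2 has 1 knockout library at 40.2 FPKM.

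Loss of ataxin-3 left the members without a call. None of 34 was called in Atxn3KO against wild-type by limma, beside 0.0142% of all genes (2 genes), and 3 members had an unadjusted p under 0.05 (6.46% of all genes did). Kcnab2 had the smallest p, at 139, 138 and 133 FPKM in knockouts against 153, 159 and 153 FPKM in wild-type, without overlap. Its log2 difference was -0.18 (SE 0.05, limma adjusted p = 0.605). The groups did not overlap for 3 of 34 members and for 10% of all genes. Kcnh1 (EAG1) differed by 0.29 with an adjusted p of 0.68, and Kcng4 by -0.18 with an adjusted p of 0.752, from the same limma fit. Against knockouts, dupKIHom had 1 called member of 34 beside 1.24% of all genes.

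Kcna2 (Kv1.2) was high in 1 knockout library. It measured 15.1, 40.2 and 18.9 FPKM there, 22.8, 22.9 and 19.4 FPKM in wild-type, and 12.5, 17.9 and 17.6 FPKM in dupKIHom. The library at 40.2 FPKM also had the steepest relation of log2 FPKM deviation to transcript length in the set, 0.242 log2 units per 10 times the length, where the other 8 libraries ran from -0.148 to 0.0223. The dupKIHom and wild-type values did not overlap, yet the log2 difference of -0.43 (SE 0.28) had a limma adjusted p of 0.61.

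The comparison of the heterozygous knock-ins, dupKIHet against KIHet, gave the most called members. Of 32 members 4 were called, all higher in dupKIHet and among them Kcna2, Kcna1 and Kcnq3, which is 12.5% beside 10.7% of all genes tested (1577 called). The share of members is near that background, and 12 members had an unadjusted p under 0.05 (37.5%, against 25.6% of all genes). Of all genes 7.84% were called higher and 2.81% lower, so that 73.6% of the calls were higher. That share moved with the scaling, to 53.7% with median-ratio scaling, 54.6% with quantile normalization and 49.4% (494 higher, 506 lower) once values were corrected for transcript length. The median log2 difference was 0.10 over members and 0.03 over all genes. Without the libraries numbered 1, 3 of 32 members were called beside 12.1% of all genes.

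Kcna2 (Kv1.2, the partner of Kv1.1 in axons) had the largest log2 difference of the 32 members. It read 37.8, 37.9, 34.7, 31.1, 41.9 and 21.0 FPKM in dupKIHet libraries 1 to 6 and 17.7, 19.0, 19.3 and 18.9 FPKM in KIHet. Every dupKIHet library was above every KIHet library, with dupKIHet library 6 close to them. The means were 34.1 ± 7.36 (SD, n = 6) and 18.7 ± 0.740 FPKM (SD, n = 4), a 1.74-fold difference on the log2(FPKM + 1) scale (log2 0.80, SE 0.15, limma adjusted p = 0.00129). The call held in all 10 fits that left out 1 library, and without the libraries numbered 1 the log2 difference was 0.74 (adjusted p = 0.0119). Over all libraries, the 2 groups did not overlap for 4 of 32 members, beside 7.99% of all genes.

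Wild-type Kcna2 lay between these groups, at 18.8 to 31.8 FPKM with a median of 26.8 FPKM. KIHom read 15.7 to 20.5, YACQ84 24.9 to 26.9 and YACQ15 23.8 to 30.4 FPKM. Against wild-type neither heterozygote passed, with log2 0.37 for dupKIHet (SE 0.13, limma adjusted p = 0.165) and -0.42 for KIHet (SE 0.15, limma adjusted p = 0.285). These 3 comparisons share libraries. Leaving out dupKIHet library 6 took the first to log2 0.50 (limma adjusted p = 0.00953). It was the only 1 of 12 fits leaving out 1 library that passed, and the highest adjusted p among them was 0.409.

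Kcna1 had 62.9 to 81.5 FPKM in dupKIHet (median 80.1) and 59.3, 65.1, 67.4 and 59.2 FPKM in KIHet, an overlap through dupKIHet library 6 alone. The log2 difference was 0.28 (SE 0.07, limma adjusted p = 0.0124), and 0.23 (adjusted p = 0.0576) without the libraries numbered 1. Kcnq3 read 8.47 to 12.8 FPKM in dupKIHet and 9.54, 9.02, 8.66 and 9.49 FPKM in KIHet, again overlapping through dupKIHet library 6. The log2 difference was 0.26 (SE 0.08, limma adjusted p = 0.0368), or 0.27 (adjusted p = 0.0493) without the libraries numbered 1. With median-ratio scaling or quantile normalization Kcnq3 no longer passed (0.23 and 0.21, adjusted p = 0.111 and 0.152). Of fits leaving out 1 library, 9 of 10 kept Kcna1 and 2 kept Kcnq3.

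Several other members were examined in this comparison without a call. Kcnh1 differed by log2 0.20 (limma adjusted p = 0.0728). Among the Kv3 genes Kcnc4 differed by -0.15 (adjusted p = 0.129), and among the modifiers Kcnf1 by -0.15 (adjusted p = 0.123). Kcna3, the neighbour of Kcna2 with a short transcript, differed by 0.20 (SE 0.11, limma adjusted p = 0.256).

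Transcript length tracked this comparison. Over 14066 genes with a length, the log2 difference correlated with length (Spearman 0.384), and over 32 members by 0.299, a description of genes that share the same libraries. With genes split by length into 5 equal bins, from short to long the median difference was -0.08, -0.03, 0.02, 0.06 and 0.13, and the share called higher was 1.85, 2.77, 4.56, 9.91 and 20.7%. The median longest transcript was 4791 bases over members and 2969 bases over all genes. The bin of the longest genes held 15 of 32 members and 3 of the 4 called, among them Kcna2 and Kcnq3 with transcripts of 11582 and 11824 bases. Kcnh7, at 13321 bases, differed by 0.14 without a call.

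With values corrected for length before the fit, Kcna2 remained higher, by log2 0.62 (limma adjusted p = 0.00203). Kcna1 (0.22, adjusted p = 0.0512) and Kcnq3 (0.08, adjusted p = 0.515) no longer passed. Kcnc1, Kcnc4 and Kcnf1 were called lower in that fit, at log2 -0.17 (adjusted p = 0.0138), -0.20 (adjusted p = 0.037) and -0.24 (adjusted p = 0.0218). That fit called 4 of 32 members, beside 7.11% of all genes with a length. The same 4 were called with this correction when the libraries numbered 1 were left out, with Kcna2 at 0.57 (adjusted p = 0.0141), Kcnc1 at -0.18 (adjusted p = 0.0157), Kcnc4 at -0.20 (adjusted p = 0.0418) and Kcnf1 at -0.23 (adjusted p = 0.043).

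**Figure D3:**
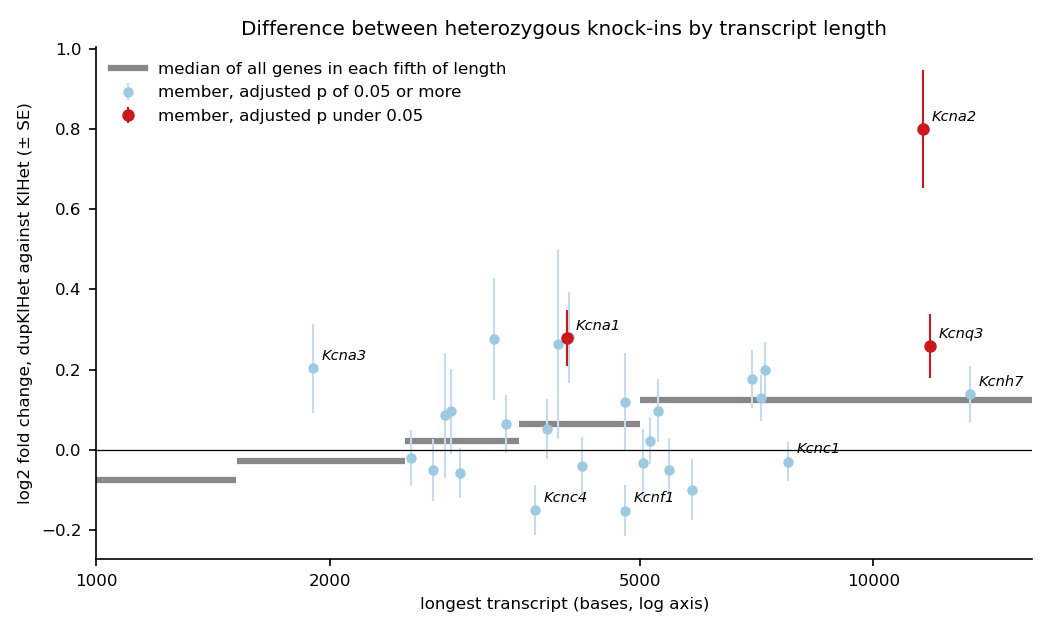
Log2 difference of dupKIHet against KIHet (± SE) for each of 28 members, by the length of its longest transcript on a log axis. Grey lines give the median of all genes in each of 5 length bins, from -0.08 to 0.13, and Kcna2 lies farthest above them. The first and last bins run beyond the axis.

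Each library was also given a length slope, the change in its log2 deviation per 10 times the transcript length. KIHet libraries ran from -0.0960 to -0.0585 and KIHom from -0.114 to -0.0228. The dupKIHet libraries ran from -0.110 (library 6, where Kcna2 was lowest) to 0.136, and 5 of the 6 lay above every KIHet library. Wild-type spanned -0.0840 to 0.0600, YACQ84 0.0135 to 0.0916 and YACQ15 -0.0165 to 0.0494. The members, Kcna2 among them, were left out when each slope was fitted. Whether the slope arises in the tissue or in the preparation of the libraries was not tested.

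**Figure D4:**
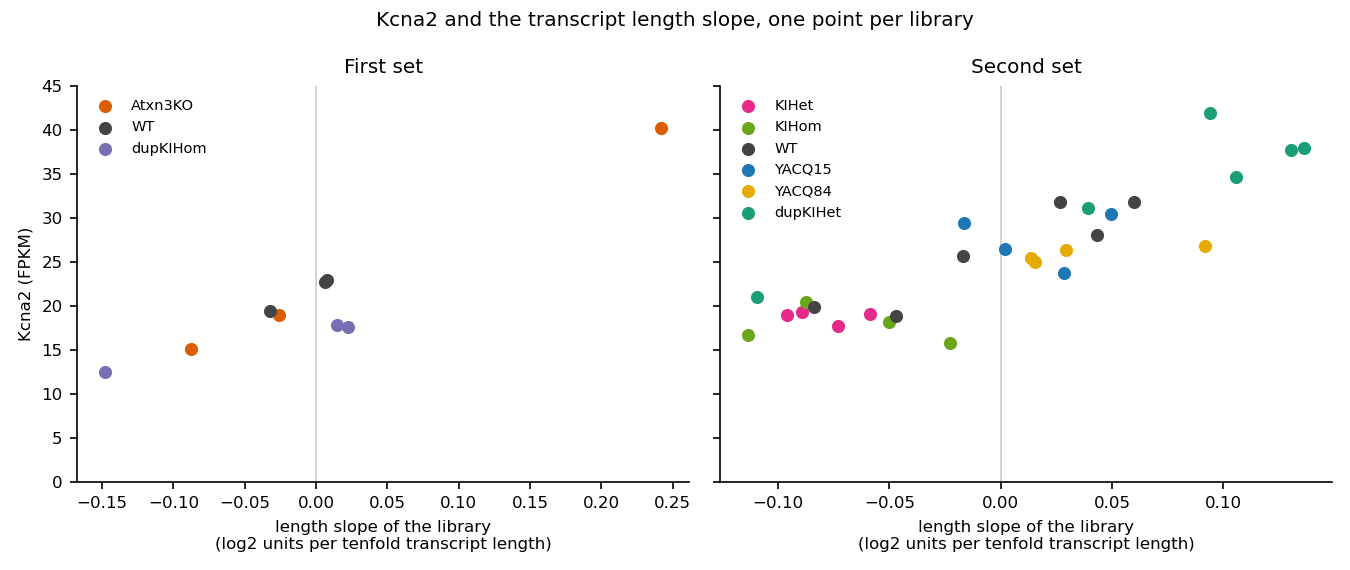
Kcna2 (FPKM) against the transcript length slope of each library, for the first set (9 libraries) and the second (28 libraries), coloured by genotype. The knockout library at 40.2 FPKM has the steepest slope of its set, and 5 dupKIHet libraries lie at the upper right while dupKIHet library 6 lies with KIHet and KIHom.

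Other cell types differed between these groups as well. Endothelial markers summed to 76.4 to 96.8 FPKM in dupKIHet and 47.1 to 57.4 FPKM in KIHet, and 4 of 5 were called higher. Astrocyte markers summed to 594 to 661 and 802 to 889 FPKM, with 6 of 8 called lower in dupKIHet. Of 6 tested hindbrain neuron markers 2 were called higher, Glra1 (glycine receptor) by log2 0.88 (limma adjusted p = 0.000767) and Slc6a5 (glycine transporter) by 0.35 (limma adjusted p = 0.0461). None of the 10 general neuronal markers was called, and 3 of 8 tested oligodendrocyte markers were called lower. Without the libraries numbered 1, Glra1 stood at 0.81 (adjusted p = 0.0101) and Slc6a5 at 0.31 (adjusted p = 0.0753), 5 of 5 endothelial markers were called higher, and 5 of 8 astrocyte, 4 of 8 oligodendrocyte and 1 of 10 general neuronal markers lower. Their part in the channel differences was not tested beyond the neuronal covariate, which left Kcna2 at log2 0.80 (limma adjusted p = 0.000608). With it 9 of 32 members were called (28.1%), near the 23.4% of all genes. A term for the libraries numbered 1 gave 25.1% of all genes. The lowest and median covariate values (mean log2) were 7.96 and 8.20 in dupKIHet, and 7.96 and 8.25 in KIHet. How far the covariate follows the libraries numbered 1 rather than neuronal content was not tested.

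Among traditional homozygotes no member was called. In KIHom against wild-type none of 32 members was called by limma, beside 0.601% of all genes, while 10 members had an unadjusted p under 0.05, all lower (31.2%, against 9.22% of all genes). Kcnd3 (Kv4.3) had the smallest p, at 10.1 to 10.6 FPKM in KIHom and 10.6 to 13.3 FPKM in wild-type without overlap. Its log2 difference was -0.21 (SE 0.06, limma adjusted p = 0.0959). Kcng4 also did not overlap, at log2 -0.23 (limma adjusted p = 0.172). Groups did not overlap for 3 of 32 members, all lower, beside 2.34% of all genes lower and 0.757% higher. Leaving out wild-type library 5 gave a call for Kcnd3 (limma adjusted p = 0.0349), the only 1 of 10 such fits to do so (highest adjusted p = 0.228). Corrected for transcript length, 7 members were lower and 1 higher at an unadjusted p under 0.05, beside 5.84% of all genes lower.

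Markers of other cells were called in the same contrast. Of 8 tested oligodendrocyte markers 3 were lower in KIHom than in wild-type, as were 2 of 5 endothelial markers (Pecam1 and Flt1) and 1 of 8 astrocyte markers (Slc6a11, a GABA transporter). The median log2 difference of the endothelial list was -0.44, with sums of 46.6 to 55.7 FPKM in KIHom and 53.7 to 87.0 FPKM in wild-type. Of the oligodendrocyte precursor markers Olig2 was higher. Without the libraries numbered 1 the oligodendrocyte and astrocyte counts were again 3 and 1, and no endothelial or precursor marker was called. The part of these markers in the channel values was not tested beyond the neuronal covariate, with which no member was called.

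KIHet against wild-type also gave no called member of 32, beside 0.115% of all genes, with 3 members at an unadjusted p under 0.05, all lower (9.38%, against 7.92% of all genes). Between KIHom and KIHet no gene of 14802 was called by limma (0%), 333 (2.25%) had an unadjusted p under 0.05, and no member did. No member of 32 was called in dupKIHet against wild-type, beside 2.53% of all genes, and 5 had an unadjusted p under 0.05 (15.6%, against 12.7% of all genes).

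The transgenic lines showed no called member either, while 4 of 8 oligodendrocyte markers and 1 of 8 astrocyte markers were called lower in YACQ84 than in wild-type (4 and 0 without the libraries numbered 1). In YACQ84 against wild-type the share was 0 of 32, beside 0.527% of all genes, and 1 member had an unadjusted p under 0.05, where 7.25% of all genes did. That was Kcnc1, at 83.0, 93.8, 85.4 and 96.9 FPKM against 92.5 to 101 FPKM in wild-type (log2 -0.11, SE 0.05, limma adjusted p = 0.657). In YACQ15 against wild-type it was 0 of 32 beside 0.00676%, with 1 member at an unadjusted p under 0.05 (4.49% of all genes). It was Kcna4 (Kv1.4, a rapidly inactivating subunit), at 4.97, 3.99, 4.78 and 5.62 FPKM against 3.14 to 4.27 FPKM in wild-type (log2 0.33, SE 0.12, limma adjusted p = 1). Between the lines 0 of 32 were called beside 0.263%, and Kcna4 alone had an unadjusted p under 0.05 (6.01% of all genes did). It read lower in YACQ84 (3.59 to 3.90 FPKM) than in YACQ15 with no overlap, at log2 -0.29 (SE 0.13, limma adjusted p = 0.771). The lines did not overlap for 1 of 32 members and for 3.91% of all genes. Without the libraries numbered 1, no member was called in any contrast of the second set other than dupKIHet against KIHet.

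Kcnab2 carried the clearest mark of the libraries numbered 1. In them it read 199 FPKM in wild-type, 206 in dupKIHet, 171 in KIHet, 175 in KIHom, 176 in YACQ84 and 174 FPKM in YACQ15. All other libraries of the second set lay between 279 and 388 FPKM. Kcnab2 was thus lowest in the library numbered 1 of every genotype, and it was called between no genotypes (for dupKIHet against KIHet log2 0.26, SE 0.24, limma adjusted p = 0.528). With a term for these libraries in the fit it was called higher in dupKIHet than in KIHet, among 7 of 32 members (21.9%), where 25.1% of all genes were called. These 6 libraries also stood apart in the steps between the lowest values: relative to wild-type library 2, the share of low genes within 0.05 log2 units of the commonest ratio was 4.89 to 6.57% in them and 17.9 to 25.1% in the other 21.

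**Figure D5:**
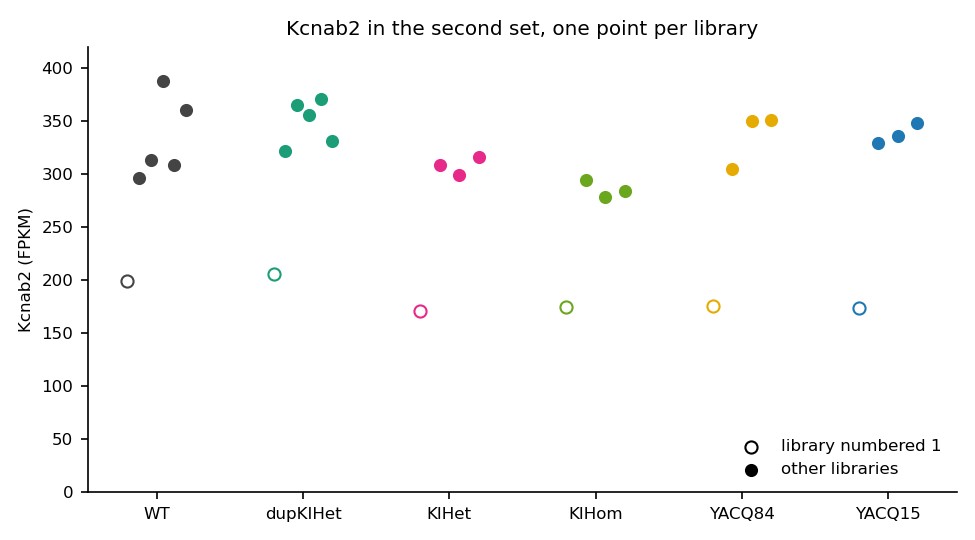
Kcnab2 (FPKM) in the second set, 1 point per library, with libraries numbered 1 as open circles. The open circles lie at 171 to 206 FPKM in all 6 genotypes and the filled ones at 279 to 388 FPKM.

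Partners of the channels were followed through lists of genes. Of the Kv auxiliary subunits (KChIP, DPP and KCNE families), with 9 genes tested in males and 8 in females, none was called in any contrast. The next list was drawn up for Kv anchoring at axons and nodes, without testing each gene for that role. On it Lgi4, a secreted protein of myelinating glia, was lower in dupKIHom than in wild-type by log2 0.77 (limma adjusted p = 0.0261). In dupKIHet against wild-type it fell by 0.88 (limma adjusted p = 8.44e-05), or by 0.83 (adjusted p = 0.00119) without the libraries numbered 1. In dupKIHet against KIHet 4 of 13 were higher and 1 lower, beside the 7.84% and 2.81% of all genes. Lgi2 stood at log2 0.39 (limma adjusted p = 0.00209) and Lgi4 at -0.52 (limma adjusted p = 0.0201). For this list and those below, counts in dupKIHet against KIHet are not corrected for transcript length. From the shortest to the longest length bin, 1.85 to 20.7% of all genes were called higher there. Without the libraries numbered 1 Lgi2 stood at 0.32 (adjusted p = 0.0132) and Lgi4 at -0.38 (adjusted p = 0.116).

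Among the other potassium channels, 3 of 28 tested genes were called lower in dupKIHom than in wild-type and none higher, beside 1.15% of all genes lower. Kcnj10 (Kir4.1, the potassium channel of astrocytes and oligodendrocytes) fell from 171 ± 7.83 FPKM in wild-type to 105 ± 8.12 FPKM in dupKIHom (SD, n = 3 each), by log2 0.69 (limma adjusted p = 0.000311). In dupKIHet it stood at 107 ± 7.01 (SD, n = 6) against 160 ± 9.53 FPKM in wild-type (SD, n = 6), a fall of 0.57 (limma adjusted p = 6.28e-09), and also of 0.57 (adjusted p = 3.3e-07) without the libraries numbered 1. Kcnk13, a two-pore-domain channel, fell by 0.98 in dupKIHom (limma adjusted p = 0.000239). The third was Kcnj16. In dupKIHet against KIHet 3 of 29 were higher (Kcnk9, Kcnn3 and the large-conductance calcium-activated channel Kcnma1) and 4 lower (Kcnj10, Kcnk13, Kcnj13 and the small-conductance calcium-activated channel Kcnn2), beside 7.84% and 2.81% of all genes. Kcnn2 fell by 0.47 (limma adjusted p = 0.00104) and Kcnk9 was higher by 0.47 (limma adjusted p = 0.0124). Without the libraries numbered 1, 2 of 29 were higher and 3 lower, and Kcnk9, Kcnn3 and Kcnj13 no longer passed. Kcnj13 read 0.207 to 18.3 FPKM in the first set and 229 to 364 FPKM in the second, so what its second-set values measure is uncertain.

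Voltage-gated sodium channels gave 2 higher of 7 in dupKIHet against KIHet, beside the same 7.84%, a count not corrected for transcript length. Scn8a (Nav1.6 of axon initial segments and nodes) stood at log2 0.32 (limma adjusted p = 0.00606), and at 0.27 (adjusted p = 0.0411) without the libraries numbered 1, a fit in which 1 of 7 was called. Calcium channels gave 1 higher of 16 in that comparison (6.25%), near the share of all genes, and none without the libraries numbered 1. In dupKIHom against wild-type 1 of 16 was called, Cacnb3, a calcium channel beta subunit, higher by log2 0.39 (limma adjusted p = 0.0156), beside 0.484% of all genes.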

How the data were processed

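RNA of the pons was sequenced, and the authors deposited FPKM for each gene and library. Tools listed, per the submitters' processing notes, are TopHat2, Cuffdiff, DESeq, Trimmomatic, FastQC and CASAVA 1.8.2, with the build mm8; their roles are unstated. Strand handling is unstated too, so overlapping and antisense genes are uncertain. Depth is unknown and precision rests on the spread between libraries.

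Samples were grouped by the labels. For 6 wild-type columns the name fitted more than 1 wild-type sample, so they served as wild-type libraries with no sample of their own. Of 41386 lines, 27 with a date for a name were left out and 132 that repeated a symbol were summed. Genes at 0 in every library of a genotype and at 1 FPKM or more in every library of another (7 and 12, no members) were left out of the tests.

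Values were transformed as log2(FPKM + 1), which understates changes of low genes, and a gene needed 1 FPKM in 3 libraries of its set (14059 and 14802 genes). limma 3.58.1 (R 4.3.3, eBayes with a trend, 1 mean per genotype) tested 11 contrasts within the sets, with p-values adjusted by Benjamini-Hochberg over every gene tested and a threshold of 0.05. The series' design text counts samples as mice, and p-values measure the spread between these samples. The fit was tested on simulated data.

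Transcript lengths are the longest GENCODE M21 transcript of each symbol, on another build than mm8, and served as lengths only. The length correction used a lowess with a span of 0.4 on log10 length. Alternatives were the pseudocount, filter, scaling, covariates, genotypes fitted, length, each library left out, the replicate number as a block and, chosen after seeing the data, the libraries numbered 1 and the column number as a block.

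The members, gene lists and named-gene rule were chosen with earlier results of these data known. Named members are those called in any contrast, the most abundant of each family in wild-type and the smallest p in each contrast. From each list up to 3 called genes per contrast by p could be named. Kcna3, Kcna6, Kcnab1, Kcnb2, Kcnc4, Kcnf1, Kcng1, Kcnh1, Kcnh7 and Kcns3 were named after their values were seen. Results of some genes are not reported here, and counts of members include them.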

Additional observations from a re-analysis of the deposited data

Results flagged for a closer look

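Of 60 groups of 4 to 6 libraries (10 named members in the second set), 6 held a library far from the rest by Dixon's criterion, which chance alone gives in about 1 of 20 groups. Of these, 5 were libraries numbered 1. Kcnab2 was low in library 1 of KIHet (170.8 FPKM, others 299.1 to 316.3), KIHom (175.1 FPKM, others 278.7 to 294.4), YACQ15 (174.4 FPKM, others 329.7 to 348.8) and dupKIHet (206.1 FPKM, others 322.3 to 371.0). Kcnq3 was high in YACQ84 library 1 (11.97 FPKM, others 9.45 to 9.71). Kcna4 was high in KIHet library 2 (4.46 FPKM, others 3.29 to 3.43).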

How the results depend on the processing

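Counts of called members are given here as they moved from the values in the report. In dupKIHom against wild-type the count of 1 became 3 with Ttr as a covariate, 3 with the column number as a block, 3 with only these 2 genotypes, 4 with the length correction and 0 with the neuronal covariate, whose list did not overlap between the groups. With the length correction 2.83% of all genes with a length were called in that contrast, against 1.64% of all genes in the report. Where no count of all genes stands beside a count here, a rise is not read as a result about the members. Against knockouts the count became 2 with Ttr, and 0 with no filter, the neuronal covariate or only 2 genotypes. In dupKIHet against wild-type 0 became 1 with no filter (Kcng3, at trace level) and 2 with the neuronal covariate, which also gave 1 in YACQ84 against wild-type and 1 against YACQ15 (Kcnab2 in both). In KIHom against wild-type the term for libraries numbered 1 gave 1 and the column number as a block 3 (711 genes). In dupKIHet against KIHet the count of 4 became 9 with the neuronal covariate, 7 with the term for libraries numbered 1 and 2 with only these 2 genotypes. All genes called there were 1577, and 3467, 3712 and 691 under these settings. The cause was not tested. Leaving out each library in turn gave 1 to 9 in dupKIHet against KIHet (9 without dupKIHet library 6, 1 without KIHet library 1, and 2 without dupKIHet libraries 2 or 5 or KIHet library 2), 0 to 2 in dupKIHet against wild-type, 0 to 1 in KIHom against wild-type (1 without wild-type library 2 or 5), 0 to 1 in dupKIHom against knockouts, 1 in dupKIHom against wild-type and 0 elsewhere; the length trend ran from 0.344 to 0.424. The named differences followed through these fits leaving out 1 library kept their sign. Under the length correction some members without a call changed sign. In dupKIHet against KIHet, Kcnh7 went from log2 0.14 to -0.05, Kcnd2 from 0.02 to -0.07 and Kcnd3 from 0.13 to -0.006. The replicate numbers of the sample titles were also tried as a block. Same-numbered libraries of dupKIHet and KIHet correlated at 0.251, 0.221, -0.0377 and 0.144 in their deviations. The highest correlations with another number were 0.0256, 0.0669, 0.147 and 0.0822, so all but number 3 correlated best with their own. Between KIHom and KIHet each number did so (0.287, 0.0557, 0.0687 and 0.315), and between the transgenic lines numbers 3 and 4 did not. These values do not settle whether the numbers pair the samples. The block gave 9 called members (3921 genes) in dupKIHet against KIHet, beside 5 on the same libraries without it, and 0 in the other 2 contrasts with shared numbers. The number in the column names was also used as a block, with the wild-type libraries, in every contrast. No contrast had every same-numbered pair above 0.1. In the second set the pairs numbered 1 correlated at 0.210 to 0.378, and with other numbers at most at 0.0747. For these libraries the number thus went with shared deviations, and the cause was not tested. The block by column number gave 10 called members (4240 genes) in dupKIHet against KIHet. It gave the counts above in the contrasts of dupKIHom and KIHom with wild-type. In the other 8 contrasts the count of called members was as in the report. Depth is unknown, so changes of members below 1 FPKM were not detectable with any stated counting error.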
